A study of Mus musculus with 12 samples.

Results

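The 10 genes described here encode subunits of the transcription factor NF-kB (Nfkb1, Nfkb2, Rela and Relb), inhibitors of the IkB family that hold it in the cytoplasm (Nfkbia, Nfkbib and Nfkbie), IkB-like proteins that act in the nucleus (Nfkbiz and Bcl3) and the ubiquitin-editing enzyme Tnfaip3. They were taken as a named family, and all 10 had rows among the 13465 genes of the table, with 20 of the 25740 annotated transcripts. The libraries are bulk RNA-seq of mouse renal cortex, 3 in each of 4 groups. CKO IRI and WT IRI kidneys had ischemia-reperfusion injury (IRI), with blood flow to both kidneys stopped for 30 min and 48 h of reperfusion after it, and CKO sham and WT sham kidneys are labelled sham. CKO mice carried a deletion of Gpx3, which encodes a glutathione peroxidase secreted into plasma, restricted to the epithelium of the renal tubule, and WT mice are labelled wild type. Cells outside the tubular epithelium keep Gpx3 by this design. The sources used here do not give the Cre driver, strain, sex, age or any pooling of animals. The study asks how tubular Gpx3 affects the kidney in acute injury.

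In resting cells, NF-kB dimers are bound by IkB proteins. Signals from tumour necrosis factor receptors, the interleukin-1 receptor and Toll-like receptors activate a kinase complex that marks IkB for destruction, and the freed dimers, typically containing RelA, enter the nucleus. Several of the genes they switch on are their own regulators, among them Nfkbia and Tnfaip3, which close the loop, and Nfkb2 and Relb, which supply a slower, non-canonical dimer. In injured kidney the pathway is known for its control of chemokines and adhesion molecules in tubular cells and infiltrating leukocytes.

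Promoters of 4 members are shown because these members rose together after injury in WT kidneys (below) and carry the kappaB consensus, the 10-base sequence that NF-kB dimers bind. The sequences are from RefSeq (GRCm38.p6), run 5′ to 3′ from 250 bases before to 50 bases after an annotated gene start, and have matches to the consensus on either strand in capitals. The regions are chr19:46305445-46305744 (plus strand) for Nfkb2, chr7:19822706-19823005 (minus strand) for Bcl3, chr17:45555450-45555749 (plus strand) for Nfkbie and chr12:55492598-55492897 (minus strand) for Nfkbia.
Nfkb2: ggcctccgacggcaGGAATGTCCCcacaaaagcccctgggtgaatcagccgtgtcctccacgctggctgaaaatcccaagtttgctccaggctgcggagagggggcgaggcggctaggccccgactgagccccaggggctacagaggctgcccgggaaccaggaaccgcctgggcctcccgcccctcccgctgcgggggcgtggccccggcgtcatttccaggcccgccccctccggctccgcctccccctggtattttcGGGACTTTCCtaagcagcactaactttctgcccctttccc
Bcl3: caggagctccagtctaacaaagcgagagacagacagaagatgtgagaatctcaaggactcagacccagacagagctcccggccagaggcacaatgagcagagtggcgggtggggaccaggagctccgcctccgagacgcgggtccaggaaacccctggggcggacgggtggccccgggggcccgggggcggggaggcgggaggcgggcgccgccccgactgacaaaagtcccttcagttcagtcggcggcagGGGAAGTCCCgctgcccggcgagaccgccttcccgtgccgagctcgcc
Nfkbie: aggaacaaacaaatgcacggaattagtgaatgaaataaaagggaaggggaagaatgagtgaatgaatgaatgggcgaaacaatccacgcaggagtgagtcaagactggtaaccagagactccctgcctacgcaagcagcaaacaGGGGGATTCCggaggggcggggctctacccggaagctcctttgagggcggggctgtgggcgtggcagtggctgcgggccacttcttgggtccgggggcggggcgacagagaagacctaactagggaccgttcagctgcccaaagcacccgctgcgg
Nfkbia: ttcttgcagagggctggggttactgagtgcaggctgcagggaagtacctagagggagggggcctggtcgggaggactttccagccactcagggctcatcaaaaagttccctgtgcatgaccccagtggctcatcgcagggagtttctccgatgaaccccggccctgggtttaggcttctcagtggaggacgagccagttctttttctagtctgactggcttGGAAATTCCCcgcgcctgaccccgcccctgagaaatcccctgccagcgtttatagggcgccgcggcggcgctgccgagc
Nfkb2 held 2 matches, of which GGGACTTTCC began at base 11 after the start on the plus strand. Bcl3, Nfkbie and Nfkbia held 1 match each. The RefSeq table had a promoter for 7 of the 10 members and none for Nfkb1, Relb and Nfkbiz, which rose in WT kidneys too. With 1 promoter taken per gene, the one nearest the start of its most abundant deposited transcript, 4 of the 7 held the consensus, and 5 did over all their listed starts, since another start of Tnfaip3 also held it. Of all 32851 promoters of this length, 4.51% held it. The chosen promoters of Rela, Nfkbib and Tnfaip3 held no match, although Rela and Nfkbib also rose in WT kidneys. Binding of NF-kB was not measured, and the part of these matches in the rises was not tested. A looser form of the same 10 bases on either strand, with only the first 3 (G) and the last 2 (C) fixed, of which the consensus is a special case, was in 6 of the 7 members and in 50.8% of all promoters.

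Gpx3 itself was examined as a check of the labels. It measured 2501, 3037 and 3299 FPKM in CKO sham 1, 2 and 3, against 5664, 4476 and 5371 FPKM in WT sham 1, 2 and 3 (limma log2 difference -0.81, SE 0.21, adjusted p = 0.135). FPKM, fragments per kilobase of transcript scaled to library size, is the unit read for the deposited table, and differences here are on a log2(FPKM + 1) scale. After IRI it measured 3723, 3025 and 2779 FPKM in the libraries labelled CKO IRI 7, 15 and 29, against 2788, 3568 and 1075 FPKM in those labelled WT IRI 13, 24 and 49, so it did not separate the genotype labels there and genotype directions after IRI hold for libraries as labelled. Which exons were removed is not given. The extraction protocol in the labels describes joint capsule, but the libraries hold kidney transcripts. The proximal tubule phosphate transporter Slc34a1 lay between 438 and 1812 FPKM, and uromodulin (Umod) between 582 and 1441 FPKM. Of 9 cartilage and joint markers, 4 had rows, with highest values over the libraries of 24.9 FPKM for Clic5, which podocytes also express, 3.23 FPKM for Fmod, 1.63 FPKM for Comp and 1.09 FPKM for Htra4. Replicate spread was uneven, with a median SD per gene of 0.23 (log2) in CKO IRI, 0.27 in WT IRI, 0.17 in CKO sham and 0.10 in WT sham. Summed values ranged from 391002 to 422328 FPKM per library, and the depth in reads is unknown.

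Levels in uninjured kidney differed over the family. FPKM is scaled to transcript length, so levels can be set side by side. In WT sham kidneys the mean was highest for Nfkbia (39.2 ± 2.64 FPKM, SD, n = 3), followed by Nfkbib (23.7 ± 1.14 FPKM) and Rela (16.9 ± 0.57 FPKM), and these 3 did not overlap. Nfkb2 (7.74 ± 0.72 FPKM) and Nfkb1 (6.66 ± 0.69 FPKM) came next and overlapped each other. Bcl3 and Nfkbiz averaged 3.54 and 2.82 FPKM, and Nfkbie (2.24 FPKM), Relb (1.56 FPKM) and Tnfaip3 (1.12 FPKM) were lowest, each overlapping its neighbour in this order. The canonical subunit gene Rela and the inhibitors Nfkbia and Nfkbib thus stood above the remaining members. The fifth subunit gene, Rel, peaked at 0.72 FPKM in any library and was below the level needed for testing. Because these are bulk samples, fewer cells of a type and less RNA per cell cannot be told apart.

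**Figure D1:**
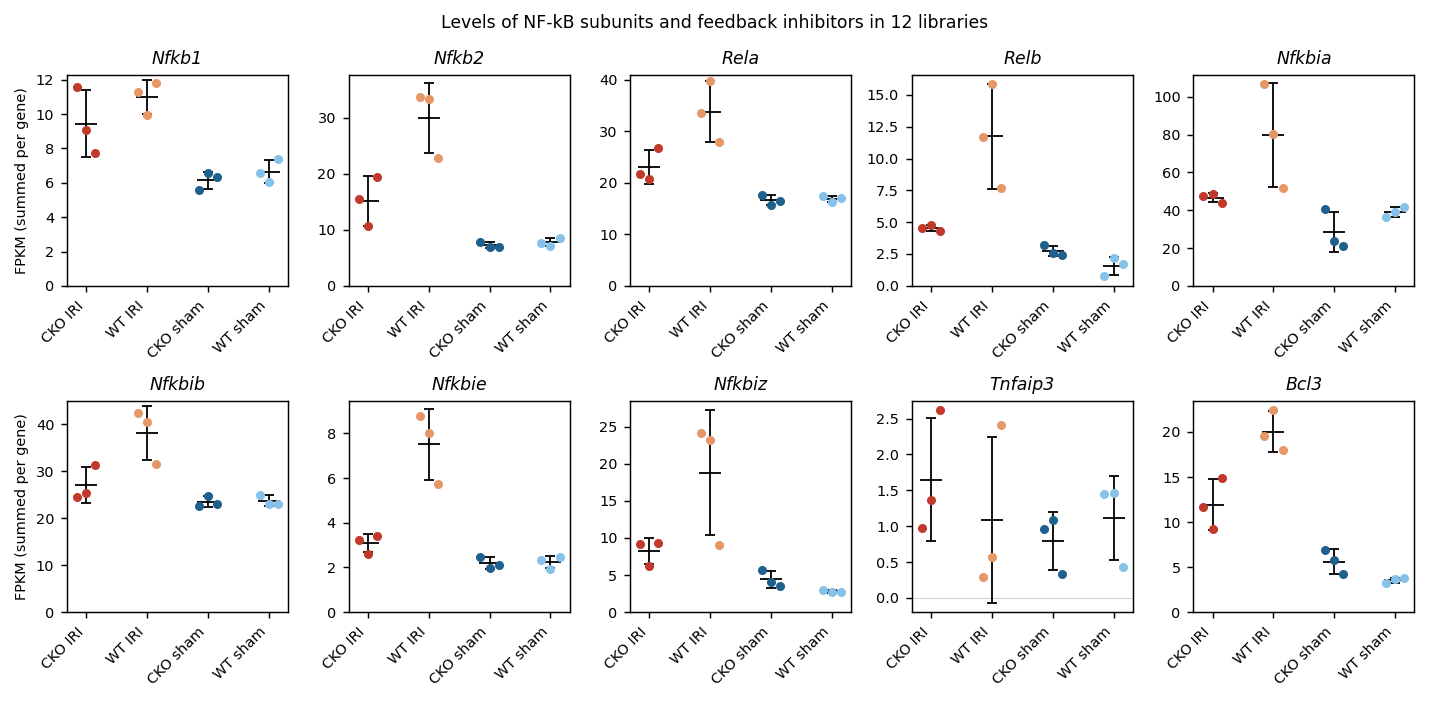
Level of each member in FPKM (y axis, each panel with its own scale) in CKO IRI, WT IRI, CKO sham and WT sham kidneys. Points are libraries, in label order from left to right, and bars show the mean and SD of 3 libraries. The 3 WT IRI libraries lie above the sham libraries of both genotypes in 9 of the 10 panels, with Tnfaip3 as the exception.

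Injury in WT kidneys raised 9 of the 10 members, and none fell. The rises were largest for Relb (7.54-fold on the FPKM means), Nfkbiz (6.67-fold) and Bcl3 (5.66-fold), and smallest for Nfkbib (1.61-fold). Tnfaip3 did not pass the test. Of all 12469 tested genes, 23.5% rose and 11.8% fell in this comparison (2936 and 1472 genes, which became 2088 and 2011 after quantile normalization and 2101 and 2125 after trimmed-mean scaling, with 9 members still called), and the median change was 1.16 (log2) over the 10 members, against 0.12 over all tested genes. Calls here and below were made with limma at a Benjamini-Hochberg adjusted p under 0.05 over all tested genes. In each of the 9 genes the lowest of the 3 WT IRI libraries lay above the highest of the 3 WT sham libraries, an arrangement found in the higher direction for 35.2% of tested genes.

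Among the subunits, Relb encodes RelB of the non-canonical dimer. Relb measured 11.7, 15.8 and 7.65 FPKM in WT IRI 13, 24 and 49, against 0.747, 2.20 and 1.73 FPKM in WT sham 1, 2 and 3. Its change was 2.31 (log2, SE 0.35, limma adjusted p = 0.00103). Nfkb2, whose precursor is processed into the partner of RelB, measured 33.7, 33.4 and 22.7 FPKM in WT IRI 13, 24 and 49, against 7.64, 7.08 and 8.50 FPKM in WT sham 1, 2 and 3. For both genes WT IRI 49 was the lowest injured library and still stood apart from every sham library. The change of Nfkb2 was 1.80 (log2, SE 0.20, limma adjusted p = 0.000176). The canonical subunit genes moved less. Rela measured 33.6, 39.8 and 28.0 FPKM in WT IRI 13, 24 and 49, against 17.4, 16.3 and 17.1 FPKM in WT sham 1, 2 and 3, a change of 0.94 (log2, SE 0.13, limma adjusted p = 0.000666). Nfkb1 averaged 11.01 ± 0.98 FPKM in WT IRI and 6.66 ± 0.69 FPKM in WT sham kidneys (SD, n = 3 each), a change of 0.65 (log2, limma adjusted p = 0.0117) that did not pass without WT IRI 24 (adjusted p = 0.0674). Relb and Nfkb1, 9th and 5th in the WT sham order, overlapped each other in WT IRI at means of 11.74 and 11.01 FPKM.

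Among the cytoplasmic inhibitors, Nfkbie (IkB-epsilon) rose most. It measured 8.78, 8.03 and 5.74 FPKM in WT IRI 13, 24 and 49, against 2.32, 1.93 and 2.48 FPKM in WT sham 1, 2 and 3 (change 1.38, log2, SE 0.17, limma adjusted p = 0.000328). Nfkbia (IkB-alpha), the most abundant member, measured 106.9, 80.4 and 52.0 FPKM in WT IRI 13, 24 and 49, against 36.6, 39.0 and 41.9 FPKM in WT sham 1, 2 and 3. WT IRI 13 was the highest and WT IRI 49 the lowest injured library, the widest spread of any member in absolute FPKM. Its change was 0.95 (log2, SE 0.27, limma adjusted p = 0.0204), and it did not pass without WT IRI 13 (0.0899) or WT IRI 24 (0.131). Nfkbib (IkB-beta) averaged 38.2 ± 5.76 FPKM in WT IRI and 23.7 ± 1.14 FPKM in WT sham kidneys (SD, n = 3 each), and its call was lost without WT IRI 24 (0.0517).

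The nuclear IkB-like genes gave 2 of the 3 largest changes. Bcl3, a co-activator that binds NF-kB homodimers, measured 19.6, 22.5 and 18.04 FPKM in WT IRI 13, 24 and 49, against 3.24, 3.65 and 3.74 FPKM in WT sham 1, 2 and 3. This change of 2.21 (log2, SE 0.20) had the smallest adjusted p of the family (limma, 4.78e-05). Nfkbiz, an inducible co-activator of secondary NF-kB targets, measured 24.1, 23.2 and 9.07 FPKM in WT IRI 13, 24 and 49, against 3.02, 2.68 and 2.76 FPKM in WT sham 1, 2 and 3 (change 2.26, log2, SE 0.28, limma adjusted p = 0.000303). Bcl3 was the more even of the pair across injured libraries, while Nfkbiz in WT IRI 49 was far below its level in the other WT IRI libraries. Tnfaip3, which removes activating ubiquitin chains upstream of NF-kB, measured 0.29, 0.56 and 2.40 FPKM in WT IRI 13, 24 and 49, against 1.44, 1.47 and 0.44 FPKM in WT sham 1, 2 and 3. These values overlapped, and the difference of -0.11 (log2) had a 95% interval of -1.07 to 0.84.

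In CKO kidneys injury raised Nfkb2 and Bcl3, which makes 2 of 10 members, and none fell. In this comparison 6.6% of tested genes rose and 2.02% fell (823 and 252 genes, which became 625 and 390 after quantile normalization and 666 and 353 after trimmed-mean scaling), and the median change was 0.56 (log2) over the members, against 0.08 over all tested genes. Nfkb2 measured 15.4, 10.6 and 19.4 FPKM in CKO IRI 7, 15 and 29, against 7.84, 6.99 and 6.85 FPKM in CKO sham 1, 2 and 3 (change 0.94, log2, SE 0.19, limma adjusted p = 0.0153). Bcl3 measured 11.6, 9.23 and 14.9 FPKM in CKO IRI 7, 15 and 29, against 6.87, 5.80 and 4.20 FPKM in CKO sham 1, 2 and 3 (change 0.96, log2, SE 0.20, limma adjusted p = 0.0145). For both genes the injured and sham libraries were fully separated, with CKO IRI 15 the lowest injured library. Neither passed without CKO IRI 7 (adjusted p 0.12 for Nfkb2 and 0.116 for Bcl3) or with CKO sham 3 left out (0.0769 and 0.0583), where the count was 0. Nfkb2 also did not pass when CKO sham 2 was left out (0.0737), which leaves 1. With only the groups compared fitted neither passed (0.0713 for Nfkb2 and 0.0732 for Bcl3), and with 1 weight per library 7 members passed. Without CKO sham 1 the count was 5, as Rela, Nfkbia and Nfkbiz then passed. Rises among all tested genes moved the same way, so these shifts were not limited to the members. They numbered 2275 with 1 weight per library and 1175 without CKO sham 1, against the 823 above. They numbered 222 without CKO IRI 7, 345 without CKO sham 2, 325 without CKO sham 3 and 373 with only the groups compared fitted.

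The other CKO differences went the same way without passing. In 8 of 10 members all CKO IRI libraries lay above all CKO sham libraries, against 21.4% of tested genes. Rela measured 21.7, 20.7 and 26.8 FPKM in CKO IRI 7, 15 and 29, against 17.6, 15.7 and 16.6 FPKM in CKO sham 1, 2 and 3 (difference 0.44, log2, limma adjusted p = 0.0567). Nfkb1 averaged 9.45 ± 1.94 FPKM in CKO IRI and 6.14 ± 0.51 FPKM in CKO sham kidneys (SD, n = 3 each), with an adjusted p of 0.0614 in limma. Nfkbiz measured 9.23, 6.19 and 9.33 FPKM in CKO IRI 7, 15 and 29, against 5.64, 4.12 and 3.46 FPKM in CKO sham 1, 2 and 3 (difference 0.78, log2, limma adjusted p = 0.101). CKO sham 1 was the highest sham library for Nfkbiz. Nfkbia measured 47.6, 48.5 and 43.8 FPKM in CKO IRI 7, 15 and 29, against 40.4, 23.9 and 20.9 FPKM in CKO sham 1, 2 and 3. For this inhibitor CKO sham 1 stood close to the injured libraries and above the other uninjured CKO libraries, and the adjusted p was 0.106 in limma. Relb averaged 4.52 ± 0.23 FPKM in CKO IRI and 2.73 ± 0.40 FPKM in CKO sham kidneys, and Nfkbie 3.08 ± 0.40 and 2.19 ± 0.27 FPKM (SD, n = 3 each). Their differences were 0.57 and 0.35 (log2), with 95% intervals of -0.19 to 1.32 and -0.01 to 0.72. Nfkbib averaged 27.1 ± 3.80 FPKM in CKO IRI and 23.5 ± 1.14 FPKM in CKO sham kidneys and the groups overlapped, as did those of Tnfaip3 at 1.65 ± 0.86 and 0.79 ± 0.41 FPKM (SD, n = 3 each). Averaged over the genotypes, 9 members rose after IRI, Tnfaip3 again excepted, where 25% of tested genes rose and 11.8% fell (3117 and 1474 genes, which became 2180 and 2171 after quantile normalization and 2244 and 2126 after trimmed-mean scaling). That count was 9 whichever library was left out.

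**Figure D2:**
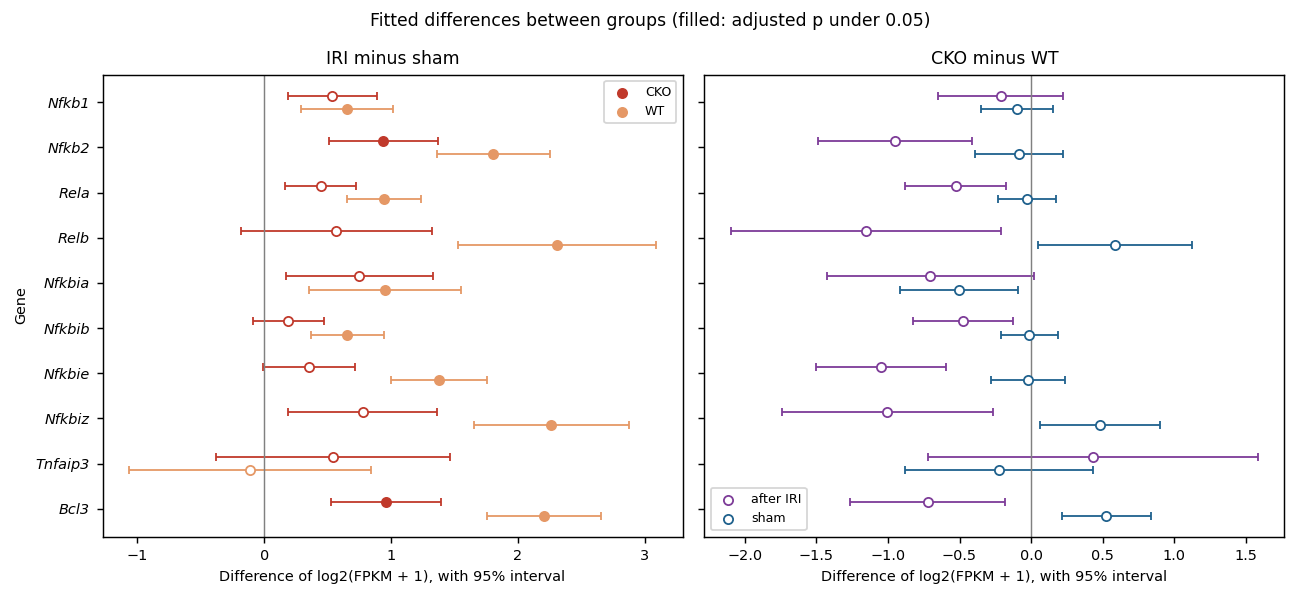
Fitted differences of log2(FPKM + 1) with 95% intervals for IRI minus sham in CKO and WT kidneys (left) and for CKO minus WT after IRI and in sham kidneys (right). Filled points passed an adjusted p under 0.05. Passing points stand at 9 of 10 members in WT and 2 of 10 in CKO on the left and at none on the right, where 9 of 10 members after IRI lie below 0.

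Between the genotypes after injury, the libraries labelled CKO IRI held less of most members than those labelled WT IRI, but no member passed the adjusted test. In 7 of 10 members every CKO IRI library lay below every WT IRI library, an arrangement found in the lower direction for 11.5% of tested genes, and in no member was the order the opposite (7.11% of tested genes). The fold of CKO IRI over WT IRI means was 0.39 for Relb, 0.41 for Nfkbie, 0.44 for Nfkbiz, 0.51 for Nfkb2, 0.58 for Nfkbia, 0.59 for Bcl3, 0.68 for Rela and 0.71 for Nfkbib. limma called 0 members, at unadjusted p under 0.05 it found 7 lower and none higher, against 7.65% and 4.96% of tested genes, and 0 were called when only these groups were fitted. With 1 weight per library in place of 1 per group, 7 members were called, all lower in CKO IRI, and 723 genes in all. The weights of CKO IRI 7, 15 and 29 were 2.55, 0.45 and 0.33. Those of WT IRI 13, 24 and 49 were 0.24, 1.05 and 0.33. CKO IRI 7 and WT IRI 24 thus counted most within their groups in that fit. The fit with group weights called 2 of 12469 genes in all (0.00802% higher and 0.00802% lower). These values share the WT IRI libraries with the WT injury comparison, so the groups in the 2 comparisons are not independent.

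Nfkbie had the smallest unadjusted p of the family after IRI. It measured 3.23, 2.63 and 3.39 FPKM in CKO IRI 7, 15 and 29, against 8.78, 8.03 and 5.74 FPKM in WT IRI 13, 24 and 49. The difference was -1.05 (log2, SE 0.21, 95% interval -1.50 to -0.59, limma adjusted p = 0.346). Relb measured 4.53, 4.75 and 4.29 FPKM in CKO IRI 7, 15 and 29, against 11.7, 15.8 and 7.65 FPKM in WT IRI 13, 24 and 49 (difference -1.15, log2, 95% interval -2.10 to -0.21, limma adjusted p = 0.35). The CKO IRI libraries were close together for Relb, and all were below WT IRI 49. Nfkb2 differed by -0.95 (log2, 95% interval -1.49 to -0.42, limma adjusted p = 0.346). Its nearest libraries were CKO IRI 29 at 19.4 FPKM and WT IRI 49 at 22.7 FPKM. Nfkbiz differed by -1.003 (log2, 95% interval -1.74 to -0.27, limma adjusted p = 0.346), and its groups overlapped, since CKO IRI 7 and 29 at 9.23 and 9.33 FPKM stood just above WT IRI 49 at 9.07 FPKM. Bcl3 differed by -0.72 (-1.27 to -0.18), Nfkbia by -0.70 (-1.43 to 0.02), Rela by -0.53 (-0.88 to -0.17), Nfkbib by -0.48 (-0.83 to -0.13) and Nfkb1 by -0.21 (-0.65 to 0.23), as log2 differences with 95% intervals. Tnfaip3 was the one member with a higher mean in CKO IRI, at 1.65 ± 0.86 FPKM against 1.09 ± 1.15 FPKM in WT IRI (SD, n = 3 each).

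The genotype by IRI interaction, which tests whether injury changed a member by a different amount in CKO than in WT kidneys, called no member at an adjusted p under 0.05 in limma. At unadjusted p under 0.05, 7 members had a smaller change in CKO and none a larger one, against 10.3% and 7.39% of tested genes, and limma called 2 genes in all (0.00802% higher and 0.00802% lower). With 1 weight per library 7 members were called, all with a smaller change in CKO, and 841 genes in all. In that fit CKO IRI 7 and WT IRI 24 again counted most within their groups. In the fit with group weights the interaction was -1.74 (log2, 95% interval -2.83 to -0.65) for Relb, -1.49 (-2.33 to -0.64) for Nfkbiz, -1.25 (-1.87 to -0.62) for Bcl3, -1.03 (-1.55 to -0.50) for Nfkbie and -0.87 (-1.49 to -0.25) for Nfkb2, and limma's adjusted p was 0.191 for the first 4 and 0.194 for Nfkb2. It was -0.20 (-1.03 to 0.63) for Nfkbia and -0.11 (-0.62 to 0.39) for Nfkb1. Nfkbiz passed without WT IRI 49 (-1.92, adjusted p = 0.0414).

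Libraries within the injured groups also differed in the extent of tubular change, and these values stand beside the genotype difference. Between CKO IRI and WT IRI the median difference was -0.89 (log2) over 15 tubular injury markers and 0.77 over 15 proximal tubule markers. It was -0.71 over the 10 members. The median interaction was -1.10, 0.91 and -0.68 in the same order. No gene of either marker list passed in these comparisons. The summed level of 15 proximal tubule markers was 8035, 10357 and 4621 FPKM in CKO IRI 7, 15 and 29, against 3430, 3073 and 6983 FPKM in WT IRI 13, 24 and 49, with 12340 FPKM as the median in CKO sham and 11692 FPKM in WT sham kidneys. Havcr1, which encodes kidney injury molecule 1, measured 228, 90.6 and 408 FPKM in CKO IRI 7, 15 and 29, against 370, 348 and 276 FPKM in WT IRI 13, 24 and 49. CKO IRI 29 had the highest Havcr1 of the 12 libraries. Its proximal tubule sum was below that of WT IRI 49, though Slc5a12, Slc22a6, Pck1, Slc13a3 and Cyp4b1 of that list were higher in CKO IRI 29. Among the members, CKO IRI 29 lay below WT IRI 49 for Relb, Nfkbie, Nfkb2, Rela, Nfkbia, Nfkbib, Bcl3 and Nfkb1. It lay above WT IRI 49 for Nfkbiz and Tnfaip3. The gaps were narrow for Nfkbib (31.45 against 31.60 FPKM), Nfkbiz (9.33 against 9.07 FPKM) and Tnfaip3 (2.61 against 2.40 FPKM). Of the 15 tubular injury markers, S100a6, Krt18 and Vcam1 were lower in CKO IRI 29 than in WT IRI 49, and the others were higher. Within WT IRI, the library with the highest proximal tubule sum, WT IRI 49, was the lowest for 8 members. The part of tubular injury in the genotype difference was not tested.

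Markers of other cells were measured as well. The sum of 14 macrophage and monocyte markers was 157 to 241 FPKM in CKO IRI, 154 to 312 FPKM in WT IRI, 133 to 191 FPKM in CKO sham and 106 to 123 FPKM in WT sham kidneys, and 1 of the 14 rose in CKO (7.14%, against 6.6% of all tested genes) and 5 in WT (35.7%, against 23.5%) after injury. By library it was 222, 241 and 157 FPKM in CKO IRI 7, 15 and 29, against 301, 154 and 312 FPKM in WT IRI 13, 24 and 49. Of these, WT IRI 13 was highest for Nfkb2, Nfkbia, Nfkbib, Nfkbie and Nfkbiz, WT IRI 24 for Rela, Relb and Bcl3, and WT IRI 49 for Nfkb1. The sum of 4 neutrophil markers with rows was 8.73 to 21.1 FPKM in CKO IRI and 11.1 to 23.1 FPKM in WT IRI, against 2.19 to 3.24 FPKM in CKO sham and 0.85 to 3.92 FPKM in WT sham kidneys. The 7 T and NK cell markers with rows summed to 0.644 to 2.36 FPKM in CKO IRI, 1.28 to 4.55 FPKM in WT IRI, 4.23 to 8.68 FPKM in CKO sham and 3.18 to 4.40 FPKM in WT sham kidneys, and Cd3e was listed at 0 in CKO IRI 29 and WT IRI 13. Endothelial markers (11 genes) summed to 89.4 to 222 FPKM in CKO IRI, 102 to 198 FPKM in WT IRI, 271 to 379 FPKM in CKO sham and 247 to 265 FPKM in WT sham kidneys, and fibroblast and mural markers (9 genes) to 161 to 259, 136 to 354, 70.6 to 108 and 60.7 to 70.4 FPKM in the same order of groups. The part of these cells in the members' changes was not tested.

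In sham kidneys no member passed between CKO and WT (limma, 17 of 12469 genes called, 0.0401% higher and 0.0962% lower). At unadjusted p under 0.05, 3 members were higher and 1 lower in CKO sham, against 9.28% and 8.48% of tested genes. Bcl3, Relb and Nfkbiz were the 3, and their CKO sham libraries all lay above their WT sham libraries, which held in the higher direction for 15% of tested genes, and in no member was the order the opposite (13.4% of tested genes). Bcl3 measured 6.87, 5.80 and 4.20 FPKM in CKO sham 1, 2 and 3, against 3.24, 3.65 and 3.74 FPKM in WT sham 1, 2 and 3 (difference 0.52, log2, SE 0.14, limma adjusted p = 0.138). Relb differed by 0.59 and Nfkbiz by 0.48 (log2, limma adjusted p = 0.252 and 0.23). CKO sham 1 was the highest CKO sham library for all 3. The Nfkbia difference was -0.50 (log2, 95% interval -0.92 to -0.09, limma adjusted p = 0.214). Without CKO sham 1 it was -0.78 (0.021), past the threshold, and with 1 weight per library it was the 1 member called. Rela, Nfkbib, Nfkbie, Nfkb1 and Nfkb2 differed by -0.10 to -0.01 (log2), and the widest of their intervals ran from -0.39 to 0.22.

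The members' sums rested on 1 to 4 deposited transcripts, all annotated as protein coding. Rela, Nfkbia, Nfkbib and Nfkbie had 1 each. For Nfkbiz the sum stayed orderly while its split did not. Nfkbiz-204 carried 62.7% of the mean in CKO IRI, 82.3% in WT IRI, 99.0% in CKO sham and 34.9% in WT sham kidneys, but WT sham 1 had 2.95 FPKM of it while WT sham 2 and 3 were listed at 0 and carried Nfkbiz-201 at 2.68 and 2.76 FPKM. Relb showed the same kind of switch, with Relb-203 at 11.7 and 15.8 FPKM in WT IRI 13 and 24 and Relb-202 at 6.55 FPKM in WT IRI 49. Nfkb1-203, a short transcript of 2354 bases, carried 61.7% of the Nfkb1 mean in CKO IRI, 64.0% in WT IRI, 54.5% in CKO sham and 39.5% in WT sham kidneys. For Nfkb2, Nfkb2-202 led in every library and carried 69.3% to 78.9% of the mean over the 4 groups. Its share still varied by library. CKO sham 1 had 7.84 FPKM of it and was listed at 0 for Nfkb2-201, while CKO IRI 7 had 9.16 and 6.27 FPKM. Bcl3-203, of 755 bases, carried 7.47% of the Bcl3 mean in CKO IRI, 9.48% in WT IRI, 34.2% in CKO sham and 18.3% in WT sham kidneys. It did not overlap between the sham groups, with 1.72, 3.16 and 0.89 FPKM in CKO sham 1, 2 and 3. The main transcript, Bcl3-201, did overlap, at 5.15, 2.64 and 3.31 FPKM in CKO sham and 2.80, 2.94 and 2.93 FPKM in WT sham. Transcripts of 1 gene share exons, so single transcripts were not tested.

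**Figure D3:**
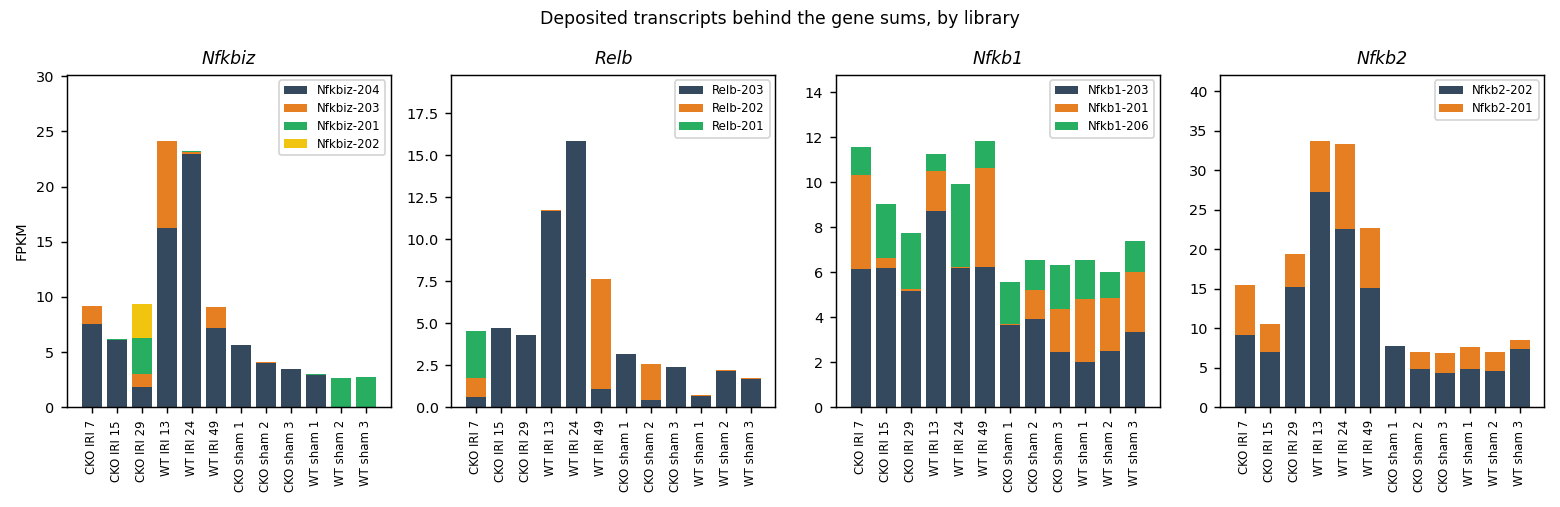
Deposited transcripts of Nfkbiz, Relb, Nfkb1 and Nfkb2 stacked by library, in FPKM (y axis), with CKO IRI, WT IRI, CKO sham and WT sham libraries from left to right. The stack heights follow the groups while the leading transcript of Nfkbiz changes between libraries of 1 group, as in WT sham 1 against 2 and 3.

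Other genes of the pathway were read from lists by role. Their counts stand against the shares of all tested genes that rose and fell after injury. These were 6.6% and 2.02% in CKO and 23.5% and 11.8% in WT, in the fit with group weights. With 1 weight per library, 2275 of the 12469 tested genes rose and 1276 fell in CKO, against 823 and 252. List counts in CKO with 1 weight per library stand against these larger numbers. Of 13 tested receptors that signal to NF-kB, 3 rose and none fell in CKO, and 7 rose and none fell in WT. With a filter of 5 FPKM 3 rose in WT, but low receptors such as Tlr2 were then no longer tested. Tnfrsf12a, the receptor of the cytokine TWEAK, measured 91.5, 56.2 and 189 FPKM in CKO IRI 7, 15 and 29, against 27.9, 21.6 and 18.1 FPKM in CKO sham 1, 2 and 3 (change 2.11, log2, limma adjusted p = 0.00369). In WT it measured 145, 165 and 87.4 FPKM in WT IRI 13, 24 and 49, against 19.1, 18.7 and 21.1 FPKM in WT sham 1, 2 and 3 (2.65, adjusted p = 0.000466 in limma). It separated injured from sham libraries in both genotypes. Tlr2, a Toll-like receptor, rose by 0.83 in CKO and 1.32 in WT, and the tumour necrosis factor receptor gene Tnfrsf1a by 0.54 and 0.80 (log2). In CKO, Tnfrsf12a alone passed without the library CKO IRI 7, and likewise when either CKO sham 2 or 3 was left out. Tnfrsf1a also did not pass in CKO with CKO IRI 29 left out (adjusted p = 0.0821) or with only the groups compared fitted (0.12). In CKO 5 receptors rose with 1 weight per library. In WT the interleukin-17 receptor subunit gene Il17rc also rose, by 1.49 (log2). Of 6 tested ligands none passed in CKO (1 rose and 1 fell with 1 weight per library), and in WT Il33, an alarmin, rose by 1.19 and Hmgb1, a nuclear protein released by dying cells, by 0.46 (log2). Hmgb1 did not pass without WT IRI 13 (adjusted p = 0.0803) or WT IRI 24 (0.138), nor with trimmed-mean scaling (0.116). Tnf, the gene of tumour necrosis factor, was at most 1.37 FPKM in any library and was not tested.

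Of 33 tested adaptors and kinases, 3 rose and none fell in CKO after injury (9.09% and 0%, against 6.6% and 2.02% of all tested genes), and 9 rose and 2 fell in WT (27.3% and 6.06%, against 23.5% and 11.8%). These shares are near those of all tested genes. The WT rises with the smallest p were Traf2 (1.35), Birc2 (1.34), Map3k14 (1.04) and Birc3 (1.37), given as log2 changes. Map3k14 encodes the kinase NIK that starts Nfkb2 processing, and Traf2, Birc2 and Birc3 encode its partners in the complex that degrades it. Map3k14 measured 6.16, 6.44 and 4.80 FPKM in WT IRI 13, 24 and 49, against 2.15, 2.38 and 2.37 FPKM in WT sham 1, 2 and 3. Injured and sham libraries did not overlap for it. Without WT IRI 24, 6 rose and 1 fell. In CKO the 3 were Bcl10, Traf2 and Birc3 (0.68, 0.66 and 0.83, log2), and none passed when CKO IRI 7, CKO IRI 29, or either of CKO sham 2 and 3 was left out. Birc3 also lost its call without WT IRI 13 or any WT sham library, although it does not compare those libraries (adjusted p 0.0545 to 0.0706), and with quantile normalization (0.0744), trimmed-mean scaling (0.0532), 1 spread shared by the 4 groups (0.0653) or only the groups compared fitted (0.0906). Traf2 did not pass with only the groups compared fitted (0.0547), where 1 gene of the list rose. With 1 weight per library 6 rose and 1 fell, where 2275 and 1276 of all 12469 tested genes did. In sham kidneys Map3k7, the gene of the kinase TAK1, was lower in CKO, at 3.44, 2.95 and 2.81 FPKM in CKO sham 1, 2 and 3, against 9.77, 11.3 and 10.7 FPKM in WT sham 1, 2 and 3. It was the only gene of the 5 pathway lists that passed in that comparison (-1.51, log2, SE 0.19, limma adjusted p = 0.0201). It did not pass without CKO sham 2 or CKO sham 3 (0.16 each), with 1 spread shared by the 4 groups (0.638) or with the replicate number as a block (0.286). After IRI the genotype labels overlapped for Map3k7. It measured 3.81, 3.41 and 4.02 FPKM in CKO IRI 7, 15 and 29, against 2.88, 4.49 and 12.5 FPKM in WT IRI 13, 24 and 49.

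Of 16 tested further inhibitors, none passed in CKO. With 1 weight per library 3 rose there, where 2275 of all 12469 tested genes did. In WT 6 rose and 2 fell (37.5% and 12.5%, against 23.5% and 11.8% of all tested genes). The share of falls was near that of all tested genes. The fallers were Rnf11 (-0.68) and Tax1bp1 (-0.41, log2), which encode cofactors of the Tnfaip3 protein, and Tax1bp1 did not pass without WT IRI 24 (adjusted p = 0.0731). Nfkbid, another nuclear IkB-like gene, rose by 1.19 (log2), at 4.35, 3.56 and 2.24 FPKM in WT IRI 13, 24 and 49, against 0.90, 0.82 and 0.95 FPKM in WT sham 1, 2 and 3. Traf1 rose by 1.09 (log2). Without WT sham 2, 3 rose and 2 fell, and without WT IRI 24, 2 rose and 1 fell. After quantile normalization 2 rose and 3 fell, and after trimmed-mean scaling 3 and 3.

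Of 35 tested genes listed as NF-kB targets, 8 rose and 1 fell in CKO after injury (22.9% and 2.86%, against 6.6% and 2.02% of all tested genes), and 20 rose and 3 fell in WT (57.1% and 8.57%, against 23.5% and 11.8%). Lcn2, the lipocalin NGAL, measured 181, 107 and 429 FPKM in CKO IRI 7, 15 and 29, against 14.7, 7.27 and 4.78 FPKM in CKO sham 1, 2 and 3. In WT it measured 361, 465 and 147 FPKM in WT IRI 13, 24 and 49, against 5.13, 6.45 and 4.05 FPKM in WT sham 1, 2 and 3. It rose in both genotypes, by 4.49 and 5.57 (log2). The adhesion molecule gene Vcam1 measured 31.1, 53.4 and 22.7 FPKM in WT IRI 13, 24 and 49, against 2.80, 2.87 and 3.85 FPKM in WT sham 1, 2 and 3, and Csf1, the macrophage growth factor gene, rose by 2.28 (log2). The chemokine gene Ccl20 measured 5.66, 5.41 and 5.77 FPKM in WT IRI 13, 24 and 49 and was listed at 0 in WT sham 2 and 3. The fallers in WT were Tnfaip8, the mitochondrial superoxide dismutase gene Sod2 and the complement factor gene Cfb (-1.26, -0.90 and -0.63, log2). In CKO, Cxcl1, Ccl20 and C3 rose by 2.95, 1.34 and 1.82 (log2), but the count of rises in the list was 1 with CKO IRI 7 left out, 4 with CKO IRI 29 left out and 2 with either CKO sham 2 or 3 left out. With only the groups compared fitted, 3 rose and 1 fell, and Cxcl1, Ccl20 and C3 did not pass (adjusted p = 0.0567, 0.0954 and 0.103). With 1 weight per library 14 rose and 2 fell, where 2275 and 1276 of all 12469 tested genes did. Medians were 0.31 (log2) in CKO and 1.09 in WT for this list. The lists share Lcn2, Vcam1 and Cd44 with the tubular injury markers, and the target list holds genes with other regulators.

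**Figure D4:**
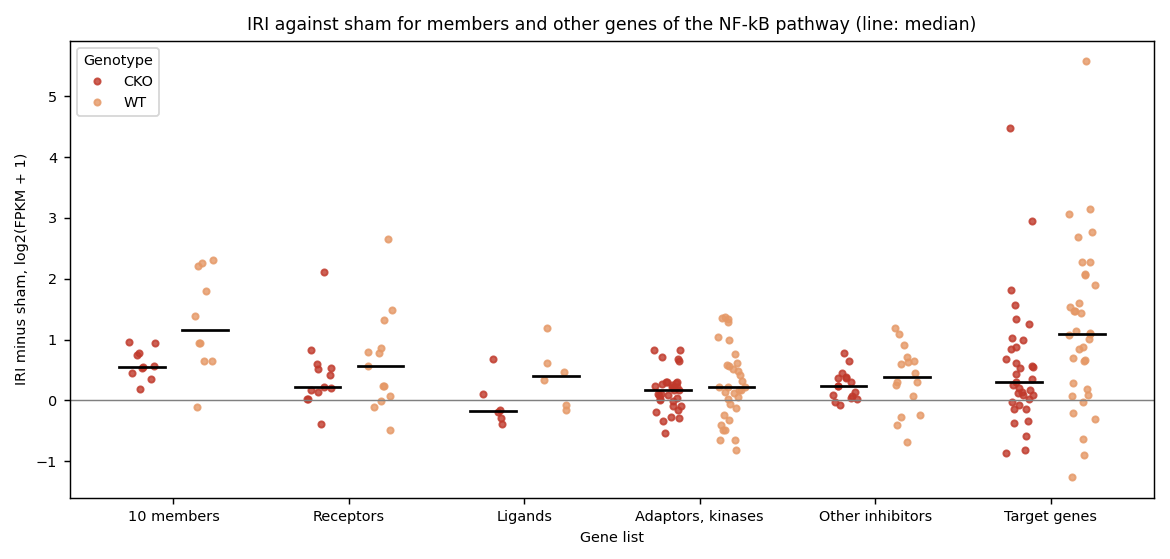
IRI minus sham difference of log2(FPKM + 1) for each member and for each tested gene of the 5 pathway lists (x axis) in CKO and WT kidneys. Lines are medians, which stand at 0.56 (CKO) and 1.16 (WT) for the members and at 0.31 (CKO) and 1.09 (WT) for the target genes.

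The tested genes whose profile over the 12 libraries was most like a member's were found by the root mean square difference of log2(FPKM + 1), each gene centred on its own mean. This was done for the 4 members with the largest called change. Nfkbiz lay closest to Sox4, a transcription factor gene (0.15, log2), then to Edn1, the endothelin gene (0.21), and Elf3, an epithelial transcription factor gene (0.21), where the median over all tested genes was 0.92. Sox4 measured 16.6, 12.8 and 21.1 FPKM in CKO IRI 7, 15 and 29, 58.9, 58.1 and 21.7 FPKM in WT IRI 13, 24 and 49, 12.8, 8.45 and 8.72 FPKM in CKO sham 1, 2 and 3, and 7.72, 7.59 and 8.09 FPKM in WT sham 1, 2 and 3, so WT IRI 49 stood with the CKO IRI libraries, as it did for Nfkbiz. Nfkb2 lay closest to Samd14, Sbno2 and the AP-1 gene Fosl2 (0.12, 0.12 and 0.14), and Bcl3 to Arpc1b, Fbxo5 and Lgals1 (0.17, 0.19 and 0.19). Relb lay closest to Stap2 (0.30) and then to 2 other members, Nfkbiz (0.31) and Bcl3 (0.32), against a median of 0.90 over all tested genes. The nearest genes are by choice the smallest differences, so the medians give a scale only. Whether members lie closer to each other than to other rising genes was not tested.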

How the data were processed

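Bulk RNA was sequenced from mouse renal cortex, 3 libraries in each of 4 groups. The submitters' processing notes list StringTie, HISAT2 2.1.0 and cutadapt. The notes name a human build (GRCh38), while the identifiers are mouse. The authors deposited FPKM per transcript (25790 transcripts); the header names no unit, and TPM would differ by 1 factor per library. In every transcript the highest group mean was at least 0.5 FPKM, so lower transcripts were not analysed here. Per the labels the kit marked strand; no source used here gives the counting setting.

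Identifiers without version were matched to GENCODE M21 (GRCm38); 50 transcripts had no match and were dropped. FPKM was summed per gene, without rounding or rescaling. The 12469 genes that reached 1 FPKM in 3 or more libraries were tested with limma 3.58.1 in R 4.3.3 on log2(FPKM + 1), with a mean-variance trend and 1 variance weight per group, because replicate spread differed between groups. Tests were two-sided, with Benjamini-Hochberg adjustment per contrast. Intervals are 95% from the same fit. The fit was also run on simulated data. No result of that run is given here, so it lends the calls no weight. No count test or counting interval was possible, as read depth is unknown. Nothing states that libraries were separate animals, so p-values reflect only how these libraries vary, which may be technical. With 3 against 3, an exact permutation test cannot go below 0.1.

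Members and lists were chosen with earlier results of these data known. Named genes were the 10 members, Gpx3, up to 4 called genes of smallest p per pathway list in the injury comparisons, called pathway genes in the genotype comparisons, leading cell markers, and the 3 nearest genes of 4 members. Tnfaip8, Sod2, Cfb, Tnf, Rel, Havcr1, Slc34a1, Umod, Cd3e, Fmod, Comp, Htra4, Slc5a12, Slc22a6, Pck1, Slc13a3, Cyp4b1, S100a6 and Krt18 were named after their values were seen. Alternatives were pseudocounts of 0.1 and 0.5, filters of none and 5 FPKM, quantile, trimmed-mean and equal-sum scaling, other weights, fits of only the groups compared, coding transcripts, each library left out, and a replicate block in sham. The alternatives for the pathway lists were added after seeing the data.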

Additional observations from a re-analysis of the deposited data

How the results depend on the processing

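The count of members called after injury in WT was 9 under every setting other than leaving out a library, which gave 6 to 9, and the count averaged over genotypes was 9 throughout. In CKO the 2 calls became 3 with equal-sum scaling, 7 with 1 weight per library, 0 with only the groups compared fitted, and 0 to 5 when a library was left out. With 1 weight per library, 1 member was also called in sham kidneys (lower in CKO), 7 after IRI (all lower in CKO) and 7 for the interaction; weights then ran from 0.24 for WT IRI 13 to 2.55 for CKO IRI 7, and all-gene calls were 3551 for injury in CKO, 124 for the genotypes in sham, 723 after IRI and 841 for the interaction, against 1075, 17, 2 and 2. With 1 shared spread these were 896, 0, 5 and 2, and with only the groups compared fitted 476, 11 and 0 for the first 3. The cause was not tested. Leaving out a library gave 0 to 1 member calls in sham and for the interaction and 0 after IRI. With the replicate number as a block in sham, 0 members were called and Bcl3 differed by 0.52 (adjusted p = 0.349); same-numbered libraries did not deviate together (correlations 0.0036, -0.031 and -0.0025), and no other groups share numbers. Small uncalled differences changed sign. With 1 weight per library these were Nfkb1 after IRI (0.035) and its interaction (0.088), Nfkbia's interaction (0.025) and Nfkbib in sham (0.0079, and 0.0005 after quantile normalization). Leaving out a library moved Tnfaip3 in WT between -0.53 and 0.17, Nfkbib, Nfkbie and Rela in sham between -0.051 and 0.025, -0.094 and 0.0303, and -0.068 and 0.011, and the interactions of Nfkbia and Nfkb1 between -0.48 and 0.074 and between -0.25 and 0.0064. Quantile and trimmed-mean scaling moved the median change of all genes in WT to -0.02 in both cases, against 0.12. The filter of 5 FPKM left Tnfaip3 untested. Depth in reads is unknown, which limits what can be said of members near 1 FPKM.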
